A study of Mus musculus with 8 samples.

Results

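Coenzyme Q (ubiquinone) carries electrons in the inner mitochondrial membrane from complex I, complex II and several other dehydrogenases to complex III. It is built from a polyprenyl tail, made from mevalonate, and a head group, 4-hydroxybenzoate, that is joined to the tail and then modified step by step by a set of COQ proteins in the mitochondrial matrix. The heart holds much of it, and defects in the expression of mitochondrial DNA are known to lower its synthesis in mouse heart. The RNA of 10 genes of this pathway was followed here: Pdss1, Pdss2, Coq2, Coq3, Coq4, Coq5, Coq6, Coq7, Coq8a and Coq9, chosen by gene name. All 10 were found among the 55421 genes of the deposited table, and all 10 passed the filter on low values that left 10236 genes for testing.

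Right ventricular tissue came from 4 homozygous POLG D257A mutants (POLG, libraries E to H) and 4 wild type mice (WT, libraries A to D), all female and 9 to 10 months old, bred from heterozygous parents of the line B6.129S7(Cg)-Polgtm1Prol/J. Each library was made from 1 mouse. The D257A substitution removes proofreading by the mitochondrial DNA polymerase in every tissue, and as a change of a codon it cannot be read from an expression table. Values are FPKM (fragments scaled for transcript length and sequencing depth), so that levels can be compared roughly between genes of a library. Comparisons between mice also depend on how the libraries are scaled. Summed FPKM ran from 606973 in WT B to 679994 in POLG H, and 45.8% to 47.9% of it came from mitochondria-encoded genes.

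Several features of the libraries bear on all values below. WT C and D held atrial RNA: the atrial light chain gene Myl7 reached 51.7 and 110.0 FPKM there and at most 0.498 FPKM in the other 6 libraries. The atrial markers Myl4 (8.51 and 21.5 FPKM) and Sln (4.87 and 13.3 FPKM) were also highest there. The atrial marker Nppa did not set WT C apart, at 196 and 480 FPKM in WT C and D against 37.9 to 199 FPKM elsewhere. They also stood apart in the nuclear RNAs Malat1 and Neat1, summed to 281 and 233 FPKM against 44.4 to 78.7 FPKM elsewhere. The mesothelial markers Msln, Upk3b and Wt1 summed to 7.29 and 6.17 FPKM in WT C and D against 0.834 to 2.44 FPKM elsewhere. Of these markers Wt1 did not stand apart, at 0.541 and 0.409 FPKM in WT C and D against 0.369 to 0.970 FPKM elsewhere. WT C had the lowest endothelial sum of all 8 libraries, 53.8 FPKM. POLG H had the lowest summed FPKM of the POLG libraries for mural (80.6 against 133 to 146), endothelial (61.2 against 85.2 to 86.5) and fibroblast markers (40.7 against 58.5 to 61.7). The 6 cardiomyocyte markers summed to 9008 to 11416 FPKM in POLG and to 12038 to 14368 FPKM in WT, and 2 of the 6 were lower in POLG by the test described next. Of the 4 mural markers, 1 (Myh11) was also lower in POLG by that test, and 2 of the 4 had a log2 fold change below 0. The 4 erythroid markers summed to 2351 to 4225 FPKM in POLG and to 774 to 1697 FPKM in WT. By the same test 3 of the 4 were higher in POLG, where 0.694% of all genes tested were higher and 2.12% lower. The part of these differences in the results was not tested, and in bulk tissue fewer cells of a type and less RNA per cell cannot be told apart. Rough depths, read from the spacing of the lowest FPKM, were 15.3 to 22.1 M fragments in POLG and 13.6 to 22.6 M fragments in WT, with the lowest in POLG H and WT C.

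None of the 10 coenzyme Q genes differed between POLG and WT at an adjusted p under 0.05 (limma on log2(FPKM + 1), with Benjamini-Hochberg adjustment over all genes tested). Each p-value sets the difference between genotypes against the spread between mice of the same genotype, moderated with that of all genes tested. Over all genes tested, 2.81% passed, 0.694% higher and 2.12% lower in POLG. At an unadjusted p under 0.05, 2 of the 10 were lower in POLG, Coq2 and Coq7, where 22.2% of all genes tested fell under that threshold. The POLG and WT libraries did not overlap in 1 of the 10, Coq2, where 15.8% of all genes tested, 12.9% lower and 2.96% higher, had no overlap. The share of the 10 genes in each count was thus near the background or under it.

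On the log2 scale the fold changes of POLG over WT ran from -0.28 (Coq2) to 0.08 (Coq8a), with a median of -0.053. All genes tested had a median of -0.087. Log2 fold changes were below 0 for 7 of the 10, beside 68.3% of all genes tested, and 4 of the 10 lay below the median of all genes. These signs depended on how libraries were scaled: after median ratio scaling 3 of the 10 were below 0, after quantile normalization 4 of the 10, and after scaling to nuclear-encoded genes 9 of the 10. A gene that misses the threshold is not shown to be unchanged. With the deposited scaling and a pseudocount of 1, the 95% intervals of the 10 genes reached down to -0.48, for Coq2, and up to 0.55, for Coq8a, and other settings moved these limits.

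**Figure D1:**
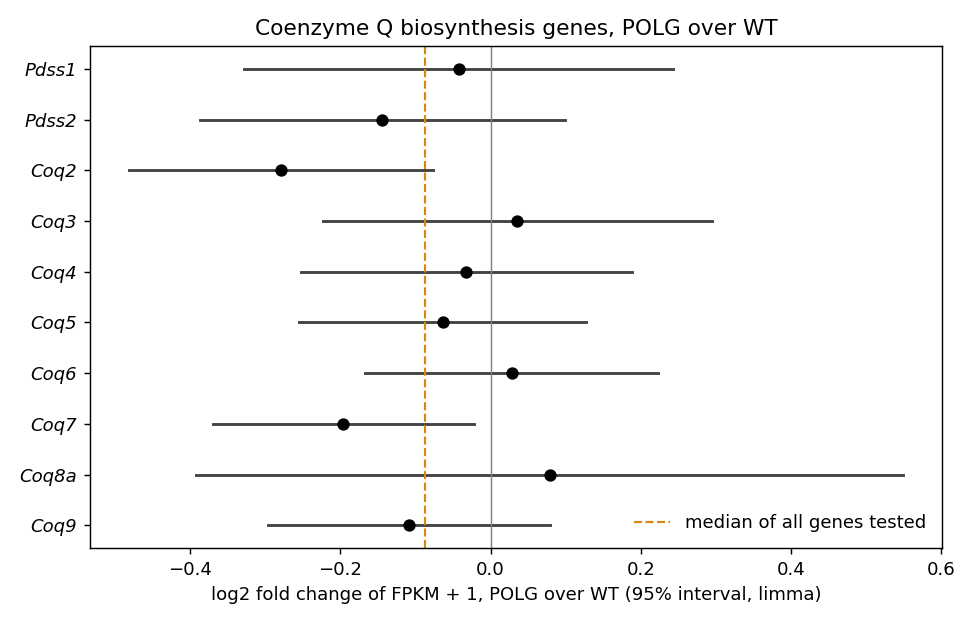
Log2 fold change of FPKM + 1, POLG over WT (x axis), for each of the 10 genes (y axis, in the order listed above). Points are limma estimates, bars are 95% intervals, the grey line marks 0 and the dashed line the median of all genes tested (-0.087); the intervals of Coq2 and Coq7 lie below 0, and those of the other 8 include it.

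By level, the genes fell into a few steps that both genotypes shared. Coq9 was the highest in every library, followed by Coq8a, Coq5 and Coq2, and the ranges of these 4 did not overlap between neighbours in this order in either genotype. Coq9 and Coq8a together made up 60.0% to 67.7% of the summed FPKM of the 10 genes in POLG libraries and 60.6% to 64.6% in WT libraries. Coq3, Coq7 and Coq6 formed the middle step, at mean levels of 8.53 to 10.9 FPKM in POLG and 8.36 to 10.6 FPKM in WT. Coq3 and Coq7 overlapped in both genotypes, while Coq7 and Coq6 overlapped in POLG and were apart in WT. Pdss1, Pdss2 and Coq4 were the lowest, all near 2 FPKM, and their order could not be told apart within the spread of the mice. The summed level of the 10 genes was 224 ± 10.7 FPKM in POLG and 235 ± 10.4 FPKM in WT (SD, n = 4 each), with overlapping ranges of 209 to 235 FPKM in POLG and 224 to 245 FPKM in WT. Without the variable Coq8a, the other 9 genes summed to 168 ± 12.0 FPKM in POLG and 182 ± 5.23 FPKM in WT (SD, n = 4 each), and the ranges of 153 to 179.8 FPKM in POLG and 174 to 187 FPKM in WT still overlapped.

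**Figure D2:**
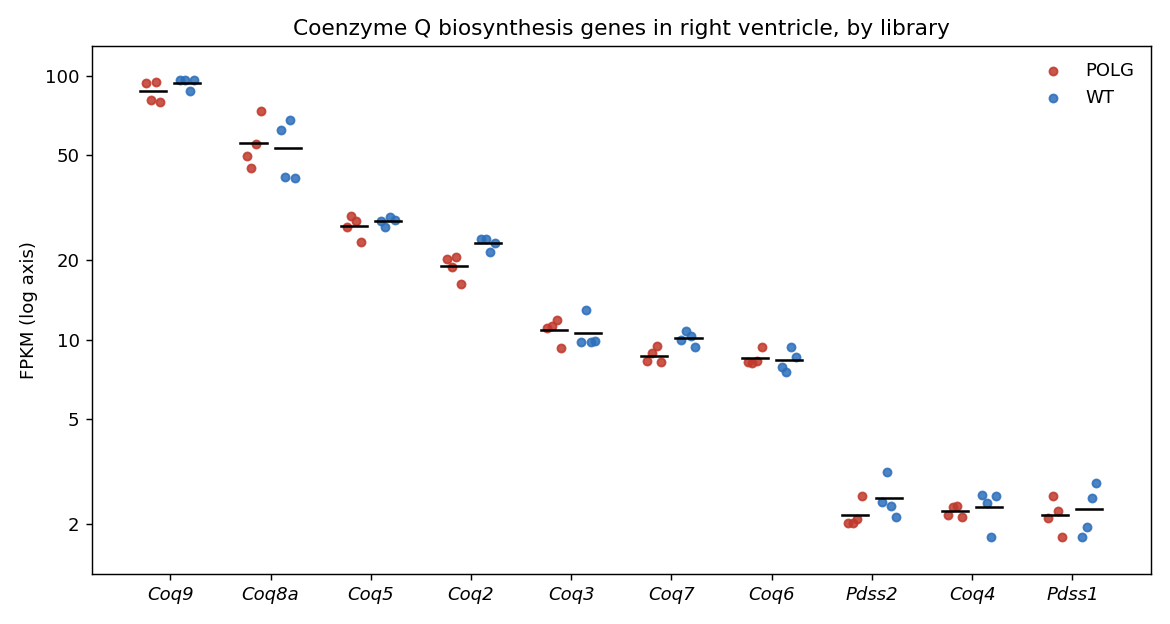
FPKM (y axis, log scale) of the 10 genes (x axis, by falling WT mean) in the 4 POLG libraries (red, left) and the 4 WT libraries (blue, right); each point is 1 mouse and black bars are means. Of the 10 genes, Coq2 alone has all POLG points below all WT points, and Coq8a has the widest spread among the higher genes.

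The tail is made by a synthase of 2 kinds of subunit, encoded by Pdss1 and Pdss2. Pdss1 (ENSMUSG00000026784.14, chromosome 2 of GRCm38, 22895522 to 22940266) was at 2.11, 2.56, 2.25 and 1.79 FPKM in POLG E to H, against 1.79, 1.96, 2.52 and 2.87 FPKM in WT A to D. The genotypes overlapped, and the 2 highest WT libraries were C and D. Pdss2 (ENSMUSG00000038240.13, chromosome 10, 43221486 to 43464882) was at 2.01, 2.02, 2.09 and 2.56 FPKM in POLG E to H, against 2.44, 3.14, 2.35 and 2.13 FPKM in WT A to D. Here 3 POLG libraries lay below every WT library and POLG H above 3 of them. The log2 fold changes were -0.04 for Pdss1 (95% interval -0.33 to 0.24, adjusted p = 0.881 from limma) and -0.14 for Pdss2 (95% interval -0.39 to 0.10, adjusted p = 0.456 from limma). Without WT C and D the value was 0.14 for Pdss1 and -0.25 for Pdss2, and without WT B that of Pdss2 was -0.062. The span of Pdss1 overlaps Abi1, at up to 4.26 FPKM, and that of Pdss2 the pseudogene Gm3699, at up to 5.27 FPKM, both on the opposite strand. Whole spans were compared, and overlap of exons was not checked. Whether strand was used in the quantification is also not given in the sources used here. It is thus unknown whether these low values hold reads of the overlapping genes.

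Coq2, the prenyltransferase that joins the tail to 4-hydroxybenzoate, had the largest difference of the 10. Coq2 (ENSMUSG00000029319.8, chromosome 5 of GRCm38, 100654723 to 100675140, minus strand) was at 20.3, 18.9, 20.6 and 16.3 FPKM in POLG E to H, against 24.1, 24.1, 21.6 and 23.2 FPKM in WT A to D. All 4 POLG libraries lay below the 4 WT libraries, with POLG H the lowest and WT C the lowest of its genotype. The mean of POLG, 19.0 ± 1.96 FPKM, was 81.9% of that of WT, 23.2 ± 1.19 FPKM (SD, n = 4 each). On the log2 scale the difference was -0.28 (standard error 0.089, 95% interval -0.48 to -0.077) and missed the threshold (limma, adjusted p = 0.124), and 16.8% of genes tested had a lower or equal one. An exact two-sided permutation test of this gene alone, unadjusted, gave p = 0.0286, the smallest that 4 mice against 4 allow. Any gene without overlap reaches this value, and 15.8% of all genes tested had no overlap. Under the 20 other settings of the fit, log2 fold changes ran from -0.33 to -0.17 and adjusted p from 0.0908 to 0.277 from limma. Because the genotypes did not overlap, only a rescaling of the libraries could have turned the direction. The log2 fold change was -0.17 after median ratio scaling, -0.22 after quantile normalization and -0.33 after scaling to nuclear-encoded genes.

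Coq7, the hydroxylase of the penultimate step, had the next largest difference. Coq7 (ENSMUSG00000030652.11, chromosome 7, 118509659 to 118533356, minus strand) was at 8.33, 8.89, 9.44 and 8.23 FPKM in POLG E to H, against 9.98, 10.8, 10.3 and 9.41 FPKM in WT A to D. The genotypes overlapped through POLG G and WT D alone. The mean of POLG was 8.72 ± 0.561 FPKM and that of WT 10.1 ± 0.603 FPKM (SD, n = 4 each). The log2 fold change of -0.20 (standard error 0.077, 95% interval -0.37 to -0.022) did not pass (adjusted p = 0.180 from limma; exact two-sided permutation test, p = 0.0571). It was -0.09 after median ratio scaling.

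The stretches of 250 bases before the RefSeq start sites of Coq2 and Coq7 are shown because these genes had the largest differences of the 10, with matches to the searched motifs in capitals. They come from RefSeq on GRCm38.p6, read 5′ to 3′ on the minus strand, at chr5:100674257-100674506 for Coq2 and chr7:118533357-118533606 for Coq7.
Coq2: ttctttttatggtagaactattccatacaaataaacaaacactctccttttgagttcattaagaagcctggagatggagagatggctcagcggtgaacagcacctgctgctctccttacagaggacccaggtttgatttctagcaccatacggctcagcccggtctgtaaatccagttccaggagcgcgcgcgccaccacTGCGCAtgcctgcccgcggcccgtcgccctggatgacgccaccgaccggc
Coq7: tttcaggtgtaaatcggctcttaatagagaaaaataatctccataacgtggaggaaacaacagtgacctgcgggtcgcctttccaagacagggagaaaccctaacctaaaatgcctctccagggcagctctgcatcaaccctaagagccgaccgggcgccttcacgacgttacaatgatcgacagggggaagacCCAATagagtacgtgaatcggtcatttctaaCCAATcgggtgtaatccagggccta
In Coq2 the capitals mark TGCGCA, the half-site of NRF1 (a factor known to control many nuclear genes of mitochondria), and in Coq7 they mark CCAAT boxes. Windows of this kind were given for 9 of the 10 genes, with 11 windows in all. Both strands were searched. TGCGCA was in 2 of the 11 windows, of Coq2 and Coq8a, and in 6.43% of all 32851 windows. CCAAT was in 3 of the 11 (33.8% of all windows), the Sp1 motif GGGCGG in 5 of the 11 (32.7%), and the ETS motif CCGGAAG in 1 of the 11, of Pdss2 (6.91%). No match was found in the 11 to the YY1 motif AAGATGGC, which 1.56% of all windows held. Likewise none of the 11 held TATAAA, known from many core promoters and found in 12.4% of all windows, or the motif of the estrogen-related receptors, TCAAGGTCA, found in 0.387%. The GENCODE span of Coq2 extends past this window, to 100675140, so the window lies inside the annotated gene.

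Coq9, a lipid-binding protein that partners Coq7, was the most abundant of the 10. Coq9 (ENSMUSG00000031782.15, chromosome 8, 94838321 to 94854895) was at 94.4, 80.9, 94.7 and 79.8 FPKM in POLG E to H, against 96.3, 96.8, 87.4 and 96.2 FPKM in WT A to D. POLG F and H were the lowest, and POLG E and G lay above WT C. The log2 fold change was -0.11 (standard error 0.083, 95% interval -0.30 to 0.079, adjusted p = 0.468 from limma), and it was 0.0073 after median ratio scaling. The span of Coq9 overlaps Ciapin1 on the opposite strand, at up to 5.77 FPKM, far under its own level. The ratio of Coq9 to Coq7 within a library does not depend on scaling. Its log2 averaged 3.32 ± 0.133 in POLG and 3.22 ± 0.120 in WT (SD, n = 4 each), a difference of 0.11 that the spread between mice covered (exact two-sided permutation test, p = 0.257, adjusted p = 0.714 over the 3 ratios tested).

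The ring is modified by the methyltransferases Coq3 and Coq5 and by the monooxygenase Coq6, and none of the 3 passed the test. Coq5 (ENSMUSG00000041733.10, chromosome 5, 115279666 to 115296972) was at 26.8, 29.5, 28.1 and 23.5 FPKM in POLG E to H, against 28.3, 26.7, 29.2 and 28.5 FPKM in WT A to D. Coq3 (ENSMUSG00000028247.2, chromosome 4, 21879673 to 21912162) was at 11.1, 11.3, 11.9 and 9.28 FPKM in POLG E to H, against 9.78, 13.02, 9.83 and 9.90 FPKM in WT A to D. Both genes were lowest in POLG H within POLG, and WT B stood above the other WT libraries for Coq3. Coq6 (ENSMUSG00000021235.13, chromosome 12, 84361657 to 84373796) was at 8.26, 8.20, 8.30 and 9.36 FPKM in POLG E to H, against 7.87, 7.58, 9.37 and 8.62 FPKM in WT A to D, with POLG H and WT C the highest. The log2 fold changes were -0.06, 0.04 and 0.03 for Coq5, Coq3 and Coq6, with 95% intervals of -0.25 to 0.13, of -0.22 to 0.29 and of -0.17 to 0.22 and adjusted p of 0.698, 0.889 and 0.883 from limma.

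Coq4 is needed for the COQ proteins to work as a complex, and Coq8a is a kinase-like ATPase that supports synthesis. Coq4 (ENSMUSG00000026798.10, chromosome 2, 29787493 to 29797935) was at 2.17, 2.32, 2.35 and 2.14 FPKM in POLG E to H, against 2.59, 2.41, 1.79 and 2.55 FPKM in WT A to D. Leaving WT C aside, each POLG library lay below each WT library, and WT C was the lowest of all. The log2 fold change was -0.03 (95% interval -0.25 to 0.19, adjusted p = 0.882 from limma) and -0.12 without WT C. The authors list COQ4 among proteins increased in POLG mutants. Protein was not measured here, and RNA levels give neither the amount of COQ proteins nor that of coenzyme Q. The span of Coq4 overlaps Trub2 on the opposite strand, at up to 2.35 FPKM, a level like its own.

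Coq8a (ENSMUSG00000026489.13, chromosome 1, 180165238 to 180199602) was at 49.6, 44.7, 55.2 and 73.5 FPKM in POLG E to H, against 62.3, 41.5, 68.0 and 41.0 FPKM in WT A to D. It varied more than any of the other 9 genes within both genotypes, with coefficients of variation of 22.6% in POLG and 26.3% in WT, against 4.75% to 14.5% and 3.69% to 21.9% for the others. The log2 fold change of 0.08 (standard error 0.21, 95% interval -0.39 to 0.55, adjusted p = 0.863 from limma) therefore leaves a wide interval. The paralog Coq8b was expressed far lower, at 1.34, 1.12, 0.948 and 1.35 FPKM in POLG E to H, against 1.02, 1.11, 0.788 and 1.06 FPKM in WT A to D. Its log2 fold change was 0.13 (95% interval -0.087 to 0.35, adjusted p = 0.451 from limma), on a scale that understates the change of so low a gene. The log2 ratio of Coq8b to Coq8a averaged -5.54 ± 0.324 in POLG and -5.71 ± 0.577 in WT (SD, n = 4 each; exact two-sided permutation test, p = 0.543, adjusted p = 0.714 over the 3 ratios).

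From mouse to mouse the 10 genes varied in both directions relative to each other. Over the 45 pairs of genes, the correlation of log2(FPKM + 1) after removal of the genotype means had a median of -0.035 and ran from -0.80 (Coq2 and Coq6) to 0.88 (Coq2 and Coq9), over 8 libraries that share depth and tissue makeup between genes. Coq2, Coq3, Coq5, Coq7 and Coq9 were all lowest in POLG H within POLG, whereas Coq6, Coq8a and Pdss2 were highest there. Of the 10 genes, 7 had their lowest POLG value in this library. Without POLG H the pair of Coq2 and Coq9 had a correlation of 0.91 and that of Coq2 and Coq6 of -0.75 over 7 libraries. The sign turned without POLG H in 15 of the 45 pairs. Among them were Coq2 and Coq5 (0.51 with it, -0.75 without it) and Coq5 and Coq9 (0.14 with it, -0.78 without it). No other library was left out for the correlations, so the weight of POLG H was not compared with that of the others. The 2 genes of the tail subunits had a correlation of -0.71 (-0.62 without POLG H). Within WT, Pdss1 was highest and Pdss2 lowest in C and D, the libraries with atrial RNA, and the part of tissue makeup was not tested. The log2 ratio of Pdss2 to Pdss1 was 0.0021 ± 0.362 in POLG and 0.15 ± 0.508 in WT (SD, n = 4 each; exact two-sided permutation test, p = 0.714, adjusted p = 0.714 over the 3 ratios). The difference of POLG minus WT was -0.15, and it was -0.56 without WT C and D.

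**Figure D3:**
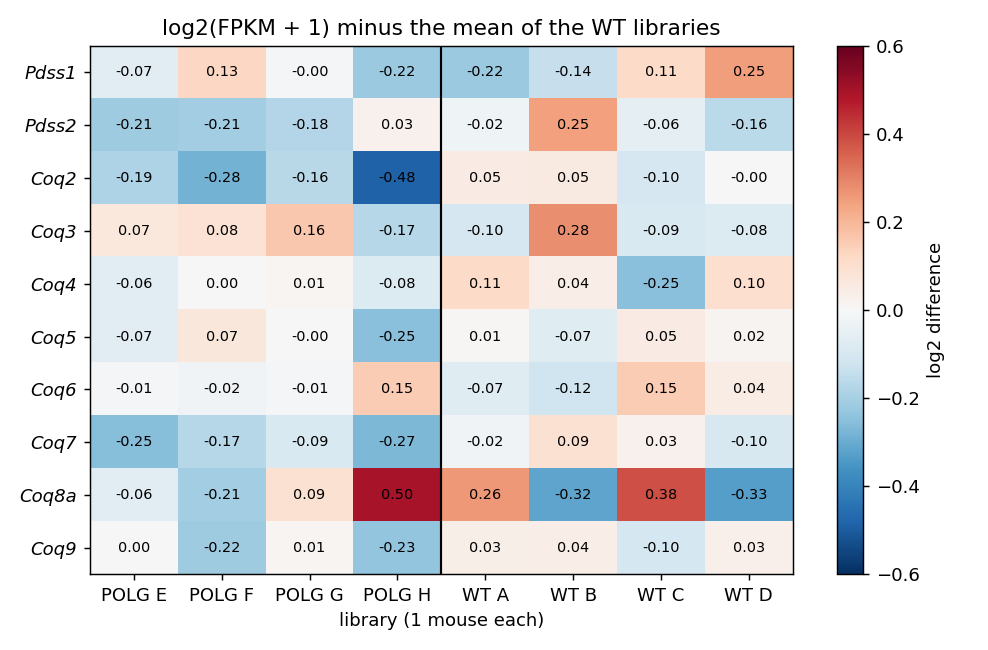
Difference of log2(FPKM + 1) from the mean of the 4 WT libraries (color and printed value) for the 10 genes (rows) in the POLG libraries (left of the line) and the WT libraries (right of the line). Coq2 and Coq7 are blue across POLG, the POLG H column holds both the lowest Coq2 and the highest Coq8a, and Coq8a changes sign among the WT libraries.

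Genes that act beside the pathway were read from lists of their own. Of 9 accessory genes, all tested, none passed. Their median log2 fold change was -0.15, with 5 of 9 below 0 and 2 of 9 lower without overlap (beside 12.9% of all genes). The smallest adjusted p was that of Coq10a, which encodes a lipid-binding chaperone for coenzyme Q in the respiratory chain. Coq10a was at 45.2, 46.9, 53.1 and 37.3 FPKM in POLG E to H, against 58.4, 72.9, 54.3 and 59.0 FPKM in WT A to D. Again the genotypes did not overlap, for a log2 fold change of -0.42 (limma, standard error 0.13, adjusted p = 0.110). It lay between -0.52 and -0.30 under the 20 other settings of the fit and passed in 0 of them.

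Mevalonate feeds the tail. Of 8 genes for the supply of farnesyl diphosphate, from Acat2 to Fdps, 7 were tested and none passed, with a median log2 fold change of -0.11. Pmvk, phosphomevalonate kinase, had the smallest adjusted p of the list. It was at 3.31, 2.71, 2.55 and 1.92 FPKM in POLG E to H, against 4.28, 3.42, 3.61 and 4.27 FPKM in WT A to D, without overlap (log2 fold change -0.44, standard error 0.13, adjusted p = 0.0958 from limma). Of 5 genes that take the same precursors elsewhere, 4 were tested and none passed. The smallest adjusted p among them was that of Ggps1, geranylgeranyl diphosphate synthase, at 2.06 ± 0.637 FPKM in POLG and 2.80 ± 0.328 FPKM in WT (SD, n = 4 each; log2 fold change -0.34, adjusted p = 0.260 from limma).

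The enzymes that pass electrons to coenzyme Q had fold changes of both signs. Of 12 listed, 10 were tested, 1 was lower and none higher by the test (Choldh was not analysed here, and Prodh2 was listed at 0). The test called 2.12% of all genes tested lower and 0.694% higher. Their median log2 fold change was -0.24, with 5 of 10 lower and 2 of 10 higher without overlap, beside 12.9% and 2.96% of all genes tested. Sdhb, the iron-sulfur subunit of complex II, was at 217, 221, 223 and 223 FPKM in POLG E to H, against 256, 272, 259 and 285 FPKM in WT A to D. Its log2 fold change of -0.28 (limma, standard error 0.059, adjusted p = 0.0473) is the same size as that of Coq2 with a smaller error. The call ended under 16 of the 20 other settings of the fit, among them median ratio scaling (adjusted p = 0.252 from limma) and the fit without WT C and D (adjusted p = 0.207 from limma), while the log2 fold change stayed between -0.33 and -0.16 over the 20. Etfdh, which brings electrons from fatty acid oxidation to coenzyme Q and was picked after its values were seen, had a fold change of the opposite sign. It was at 75.0, 70.5, 74.8 and 76.9 FPKM in POLG E to H, against 63.0, 67.0, 55.8 and 58.7 FPKM in WT A to D, with no overlap between genotypes. The log2 fold change of 0.28 (limma, standard error 0.076, adjusted p = 0.0839) lay between 0.17 and 0.40 under the 20 other settings. Without overlap, only a rescaling of the libraries could have turned its sign. Sqor, the sulfide oxidoreductase, also picked after its values were seen, was at 6.58, 6.60, 6.81 and 6.01 FPKM in POLG E to H, against 8.12, 8.52, 7.998 and 8.57 FPKM in WT A to D (log2 fold change -0.31, adjusted p = 0.0521 from limma).

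Downstream of coenzyme Q, 1 of the 9 nuclear genes of complex III was lower, Uqcr10 (log2 fold change -0.31, adjusted p = 0.0388 from limma), at 236, 223, 248 and 231 FPKM in POLG E to H, against 290.3, 285, 281 and 308 FPKM in WT A to D. Of all genes tested, 2.12% were lower by the same test. The list had a median of -0.10, beside -0.087 for all genes tested. The call for Uqcr10 held under 6 of the 20 other settings and not without WT C and D (adjusted p = 0.187 from limma). Of 4 genes for the electron transfer flavoprotein and cytochrome c (Cyc1 is in this list and in that of complex III), none passed, with a median of -0.053. Etfb, which had the smallest adjusted p of these, was at 268 ± 16.8 FPKM in POLG and 310.2 ± 36.4 FPKM in WT (SD, n = 4 each; log2 fold change -0.20, adjusted p = 0.2505 from limma).

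**Figure D4:**
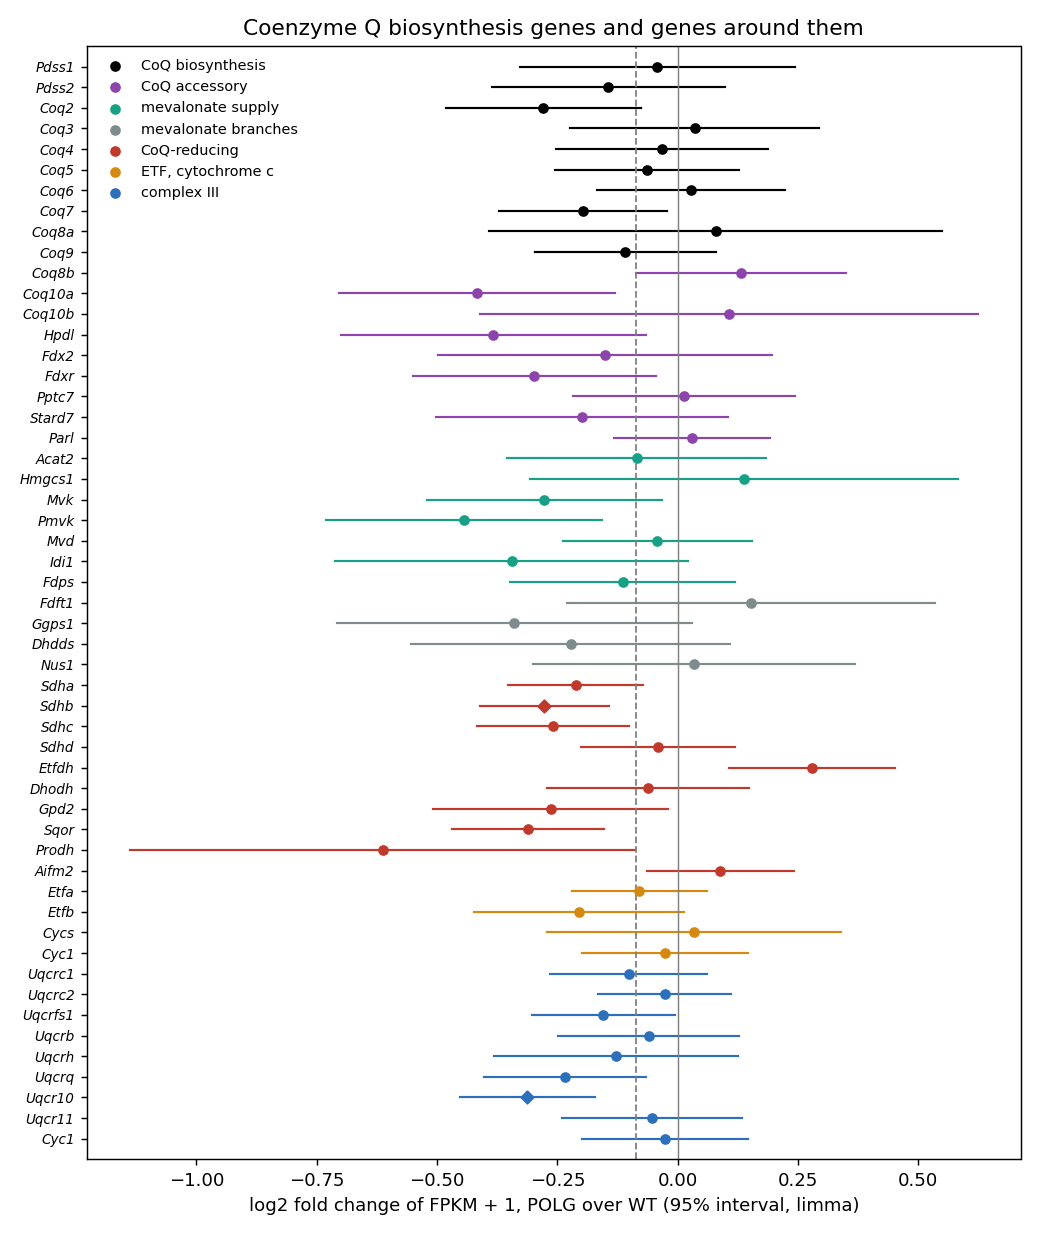
Log2 fold change of FPKM + 1, POLG over WT (x axis), with 95% intervals for the 10 coenzyme Q genes (black) and the tested genes of the 6 lists around them (colors; y axis, 1 gene per row, Cyc1 in both of its lists). Diamonds mark an adjusted p under 0.05 (Sdhb and Uqcr10), the solid line 0 and the dashed line the median of all genes tested; of the genes drawn, Etfdh alone has an interval wholly above 0.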

How the data were processed

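Poly(A) RNA of right ventricles from 4 POLG and 4 WT mice was sequenced as stranded paired-end libraries. The authors used HISAT2 against mm10, then StringTie, and deposited the resulting FPKM per gene, with 0.0001 in place of 0. Their processing notes also name cutadapt, FastQC and edgeR, with no versions given in the sources used here. Read counts were not used here: 35.5% to 40.3% of low FPKM values lay within 2% of whole reads, too few to recover them, so depths are rough and no count model was run. Columns with the authors' own fold change were not used. Of 55421 gene identifiers, 54587 matched GENCODE, from which positions came.

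Genes that averaged 1 FPKM or more were tested with limma 3.58.1 in R 4.3.3, on log2(FPKM + 1) with a trended prior, POLG over WT, over the 8 libraries. This scale understates changes of low genes. Ratios within a library were compared by exact two-sided permutation over all 70 assignments in Python 3.11.15. The test was checked on simulated data. Alternatives were pseudocounts of 0.1 and 5, other filters, scalings, priors and weights, and libraries left out. Promoter windows came from RefSeq.

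The 10 genes and all lists were chosen with earlier results of these data known. All 10 were named, and of each other list the genes that passed, up to 4, or else the gene with the smallest adjusted p. Coq8b was always named. Cell type markers were read as summed FPKM.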

Additional observations from a re-analysis of the deposited data

Results flagged for a closer look

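Of 34 groups of 4 libraries checked for a single library far from the others, 4 had one among the coenzyme Q genes, where chance gives about 1 in 20. Pdss2 was at 2.56 FPKM in POLG H, and the nearest POLG library was at 2.09 FPKM. Coq6 was at 9.36 FPKM in POLG H, and the nearest POLG library was at 8.30 FPKM. Coq3 was at 13.02 FPKM in WT B, and the nearest WT library was at 9.90 FPKM. Coq9 was at 87.4 FPKM in WT C, and the nearest WT library was at 96.2 FPKM. POLG H and WT C had the lowest rough depths, 15.3 and 13.6 M fragments, while WT B had the highest, 22.6 M fragments. The part of depth in these values was not tested.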

How the results depend on the processing

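Under every alternative of the limma fit 0 coenzyme Q genes were higher and 0 lower. With 4 mice against 4, and fewer where libraries were left out, counts of 0 say nothing about stability. Exact permutation tests of single genes, with no adjustment, counted 1 lower (Coq2). Coq2, Coq7 and Pdss2 were below 0 throughout, though for Coq2, whose genotypes did not overlap, only a rescaling could have turned the sign. The median log2 fold change of the 10 genes was 0.043 after median ratio scaling, 0.033 after quantile normalization and -0.081 without WT C and D, against -0.053.

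Signs of the small fold changes turned. After median ratio scaling Pdss1 was at 0.037, Coq4 at 0.051, Coq5 at 0.049 and Coq9 at 0.0073. After quantile normalization Pdss1 was at 0.042, Coq4 at 0.052 and Coq5 at 0.023. After scaling to nuclear-encoded genes Coq3 was at -0.0084 and Coq6 at -0.015. With library weights Pdss1 was at 0.039. Without WT C and D Pdss1 was at 0.14 and Coq3 at -0.053. Without WT C, WT D and POLG H, an alternative chosen after seeing the data, Pdss1 was at 0.20, Coq5 at 0.033 and Coq8a at -0.034. The cause was not tested. With each library left out in turn, log2 fold changes ran from -0.12 to 0.041 for Pdss1, from -0.20 to -0.062 for Pdss2, from -0.32 to -0.21 for Coq2, from -0.11 to -0.00062 for Coq5, from -0.23 to -0.17 for Coq7, from -0.15 to -0.067 for Coq9, from -0.0067 to 0.13 for Coq3, from -0.12 to 0.0059 for Coq4, from -0.013 to 0.079 for Coq6 and from -0.060 to 0.21 for Coq8a. The difference in log2 ratio ran from -0.34 to 0.031 for Pdss2 over Pdss1 and from -0.068 to 0.33 for Coq8b over Coq8a.

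Median ratio scaling turned the medians of the lists of electron transfer flavoprotein and cytochrome c (0.065) and complex III (0.015) above 0. It brought the median to -0.054 for accessory genes, -0.12 for coenzyme Q-reducing enzymes and -0.044 for mevalonate supply, and that of the branches to 0.0091. After quantile normalization the medians were -0.040 for accessory genes, -0.15 for coenzyme Q-reducing enzymes and 0.057 for electron transfer flavoprotein and cytochrome c. Without WT C and D they were -0.21 for mevalonate supply and -0.23 for its branches. Of all alternative values, 258 kept their direction and side of the threshold or moved by less than the spread. Another 27 turned sign and 14 moved further. The remaining 1 was Coq2 by the exact permutation test, where an unadjusted p of 0.0286 was set against an adjusted p of 0.124 from limma. The 258 include member counts that stayed at 0 and exact tests that repeat the main fold change, so they do not measure stability. The filter at 5 FPKM left Pdss1, Pdss2 and Coq4 untested. No paired analysis was possible because the genotypes share no replicate label.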
